A study of Mus musculus with 54 samples.

Results

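The epidermal growth factor (EGF) family was followed through 54 poly(A) RNA-seq libraries from cultured mouse lung fibroblasts and whole mouse lungs. The 7 genes were taken by their symbols: the ligand genes Ereg (epiregulin), Areg (amphiregulin), Hbegf (heparin-binding EGF-like growth factor), Tgfa (transforming growth factor alpha), Btc (betacellulin) and Nrg1 (neuregulin 1), and Egfr, which encodes the EGF receptor. They are 7 of the 43615 gene symbols present in any of 4 deposited expression tables, each with 1 row per table. Values are length-scaled transcript levels (TPM), which account for transcript length, so levels of different genes can be set side by side.

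EGF family ligands are made as membrane-bound precursors that metalloproteases of the ADAM family cut to release a soluble growth factor. Released ligand binds EGFR and its relatives ERBB2, ERBB3 and ERBB4, and the paired receptors signal through RAS and ERK. The ERK pathway then induces feedback inhibitors such as the sprouty proteins, the dual-specificity phosphatases and ERRFI1. In lung, amphiregulin is known for its part in epithelial repair and TGF-β-driven fibrosis, and neuregulin 1 differs from the other ligands here in binding ERBB3 and ERBB4, not EGFR.

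The cultures were primary lung fibroblasts (MLF) from wild-type mice aged 6 to 8 weeks, kept at 5% O2. They spent 24 h in BCAA-free medium with branched-chain keto acids added (BCKA, the first breakdown products of the amino acids), in BCAA-free medium with branched-chain amino acids (BCAA: leucine, isoleucine, valine) added back, in BCAA-free medium, or in complete medium. TGF-β1 at 20 ng/mL or PBS followed for 48 h, which gives 8 groups of 3 libraries. The lungs came from male wild-type C57BL/6 mice aged 10 to 12 weeks in 3 experiments, each with bleomycin (BLM) given into the trachea to injure the lung and with PBS lungs beside it. In the water experiment (3 lungs a group, day 14) the groups were BLM (1.25 mg/kg) with 3 mM BCAA in the drinking water from 7 days before, BLM with normal water, and PBS with normal water. In the diet experiment (4 lungs a group, day 21) they were BLM (1.25 mg/kg) with a BCAA-free diet for 14 days from day 7, BLM with normal diet, and PBS with normal diet. In the BT2 experiment (3 lungs a group, day 14) they were BLM (3.5 mg/kg) with daily BT2 at 20 mg/kg for 11 days from day 3, BLM with the 10% DMSO vehicle, and PBS lungs labelled DMSO. BT2 inhibits the kinase that holds back BCKA breakdown. The labels give no separate cultures for the fibroblast replicates, so their p-values measure only the spread between these libraries. Every comparison was made within the cultures or within a lung experiment, and none was tested between experiments. The library titles name no batch within an experiment.

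Defining markers were checked against the labelled cells, and some libraries stood apart. In the cultures 8 fibroblast marker genes summed to between 14820 and 70200 TPM, against at most 1.2 TPM for 4 leukocyte markers and 5.8 TPM for 8 epithelial markers, while 5 mesothelial markers summed to between 14.8 and 105.8 TPM. The group of BCAA-free medium with TGF-β1 held both ends of the fibroblast marker range. Its library numbered 1 was the least like its group (mean correlation 0.9593). Calls of the tested family genes that change without it are given with and without it. For genes of other lists no values without it were obtained. In lungs, the 4 PBS normal-diet libraries differed from the PBS lungs of the other experiments: 5 endothelial markers summed to 132 to 214 TPM, against 1023 to 1980 TPM in PBS lungs of the water and BT2 experiments. In the same 4 libraries, 6 type 1 alveolar markers summed to 822 to 1299 TPM and 4 leukocyte markers to 72.5 to 110.8 TPM. The sum of 6 type 2 alveolar markers was 8528 to 12820 TPM, against 40000 to 59900 TPM in the other PBS lungs. For 6 macrophage markers it was 1212 to 1847 TPM, against 8107 to 11330 TPM. Airway marker sums were not lower: 120800 to 290700 TPM for 4 club cell markers, against 106700 to 249700 TPM. For 5 ciliated cell markers 2084 to 2957 TPM stood against 1455 to 2104 TPM. The bleomycin comparison of the diet experiment is against these libraries. Library 3 of the BCAA-free diet was also the least like its group (mean correlation 0.889).

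The level of the family differed between cultured fibroblasts and lungs, as a description across separately normalised tables. In fibroblasts Egfr was between 119 and 493 TPM and Ereg between 30.6 and 82.4 TPM, while Areg never passed 1.06 TPM. In lungs the order was different: Areg reached between 27.6 and 239 TPM, Hbegf between 2.23 and 105 TPM and Egfr only between 1.79 and 17.6 TPM. Of the summed TPM of the 6 ligands, Ereg made up a mean of 68.1% to 71.6% in all 8 fibroblast groups but 0.32% to 0.57% in the 3 PBS lung groups. Areg made up 56.8% to 74.5% in those PBS lungs. In whole lung, fewer cells of a type and less RNA per cell cannot be told apart.

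**Figure D1:**
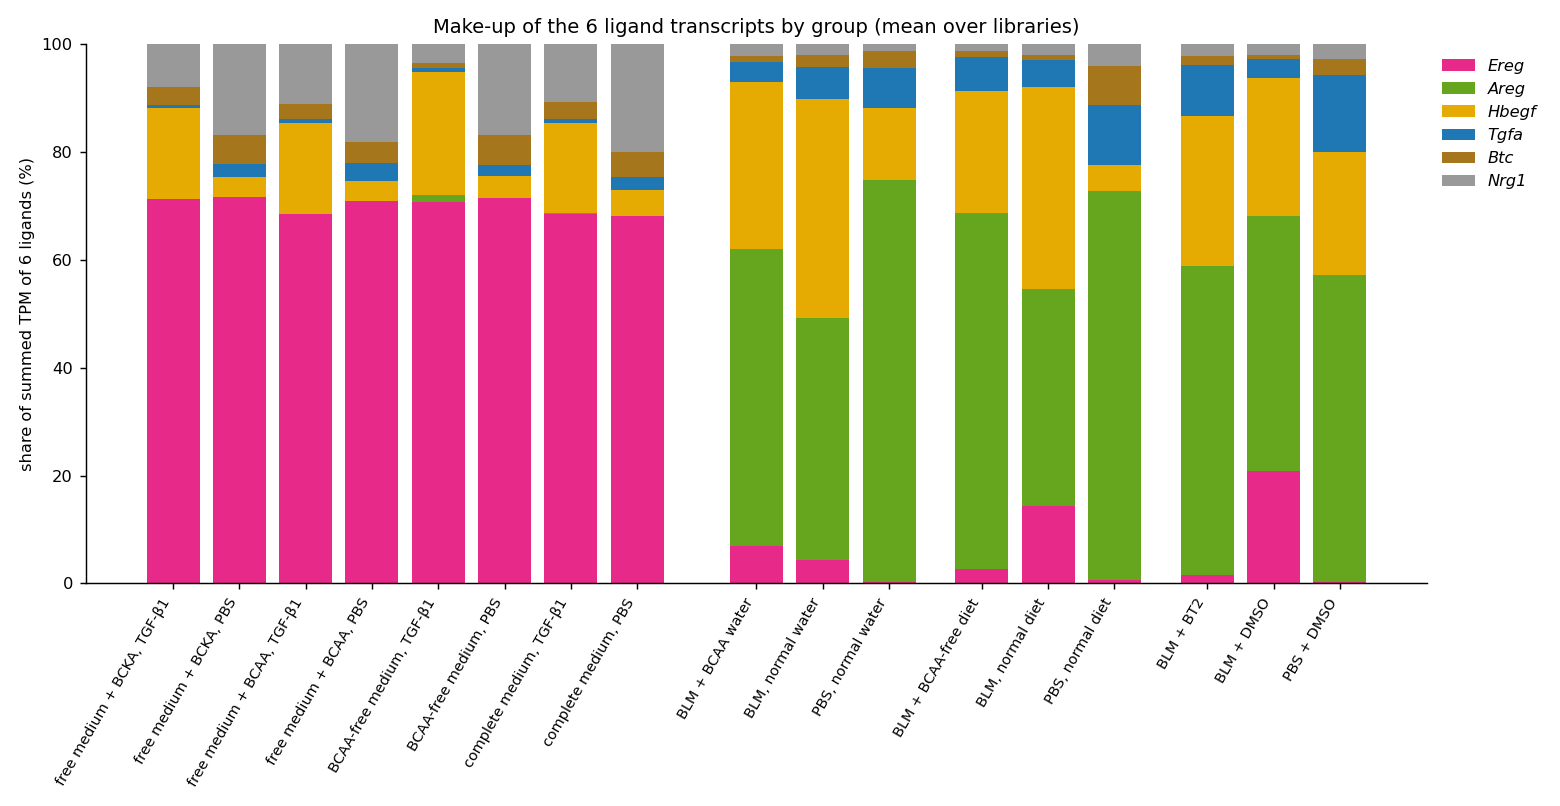
Stacked bars show the mean share, in percent, that each of 6 ligand transcripts took of their summed TPM in each of 17 groups (fibroblasts left, lungs right). Ereg fills 68.1% to 71.6% of every fibroblast bar, and Areg fills 40.2% to 74.5% of every lung bar.

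The family's promoters are shown because 3 of the ligand genes are neighbours and did not all move together in these data. In the RefSeq annotation of GRCm38.p6, Epgn (epigen, a further EGF family ligand), Ereg, Areg and Btc follow each other on chromosome 5 with no other protein-coding gene between them. Start-site windows of 300 bases (250 before the start and 50 after it) were at hand for 4 of the 7 genes and were searched on both strands for 5 motifs. The cAMP response element (CRE) was searched as TGACGTCA. The AP-1 site, bound by FOS and JUN proteins, was searched as TGANTCA, and a core of the amino acid response element as TGATGNAA. The TATA box, which sets the start of transcription, was searched as TATAAA. The GC box of SP1 family factors was searched as GGGCGG, and no 2 of the matches overlapped. Capitals mark the matches in the RefSeq GRCm38.p6 windows of Areg (chr5:91139349-91139648, plus strand), Btc (chr5:91402945-91403244, minus strand) and Egfr (chr11:16751953-16752252, plus strand), each written 5′ to 3′ along the gene.
Areg: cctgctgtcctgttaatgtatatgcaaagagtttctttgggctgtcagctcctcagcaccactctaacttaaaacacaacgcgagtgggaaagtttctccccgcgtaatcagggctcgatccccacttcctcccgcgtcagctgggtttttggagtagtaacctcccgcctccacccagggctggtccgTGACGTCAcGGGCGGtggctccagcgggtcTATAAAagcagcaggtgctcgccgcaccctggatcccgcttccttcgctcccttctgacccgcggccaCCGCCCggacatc
Btc: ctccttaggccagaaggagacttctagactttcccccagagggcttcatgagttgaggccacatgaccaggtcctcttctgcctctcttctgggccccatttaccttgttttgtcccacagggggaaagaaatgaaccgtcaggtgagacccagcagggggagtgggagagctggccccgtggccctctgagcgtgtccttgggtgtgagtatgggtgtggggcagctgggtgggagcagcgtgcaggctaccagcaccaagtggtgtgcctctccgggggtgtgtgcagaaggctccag
Egfr: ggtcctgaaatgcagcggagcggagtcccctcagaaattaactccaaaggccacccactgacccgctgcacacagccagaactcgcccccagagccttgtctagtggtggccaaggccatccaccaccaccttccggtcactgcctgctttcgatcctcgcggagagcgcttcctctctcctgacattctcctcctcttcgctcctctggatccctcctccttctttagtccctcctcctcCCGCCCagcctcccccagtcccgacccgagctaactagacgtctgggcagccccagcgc
Counting from 1 at the 5′ end of the window, Areg held a CRE at base 190, a GC box at base 199, a TATA box at base 220 and a GC box on the other strand at base 288. Of 32851 promoter windows in the table, 1.79% held the CRE letters and 13.6% the TATA letters. Egfr held 1 GC box, at base 242 on the other strand, letters that 35.7% of windows hold, and Btc held none of the 5 motifs. The Tgfa window held GC boxes at bases 125 and 236. None of the 4 windows held the AP-1 or the TGATGNAA letters, which 7.81% and 3.97% of windows hold, and a match is a description of the letters only.

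In fibroblasts TGF-β1 raised Hbegf and lowered Egfr, Nrg1 and Tgfa in all 4 media, and in BCAA-free medium it also raised Ereg and lowered Btc. A gene was called when its adjusted p (limma on log2(TPM + 1), Benjamini-Hochberg over all 13084 genes tested) was under 0.05. Areg stayed below the filter of 1 TPM in at least 3 libraries, which left 6 of the 7 genes tested. In BCAA-free medium TGF-β1 changed 6 of 6 (2 higher, 4 lower), with 64.1% of all genes called. It changed 4 of 6 (1 higher, 3 lower) with BCKA added (45.8% of all genes called), with BCAA added (44.8%) and in complete medium (48.6%). Since 44.8% to 64.1% of all genes were called in these comparisons, the counts are given as a description and not as a result about the family.

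**Figure D2:**
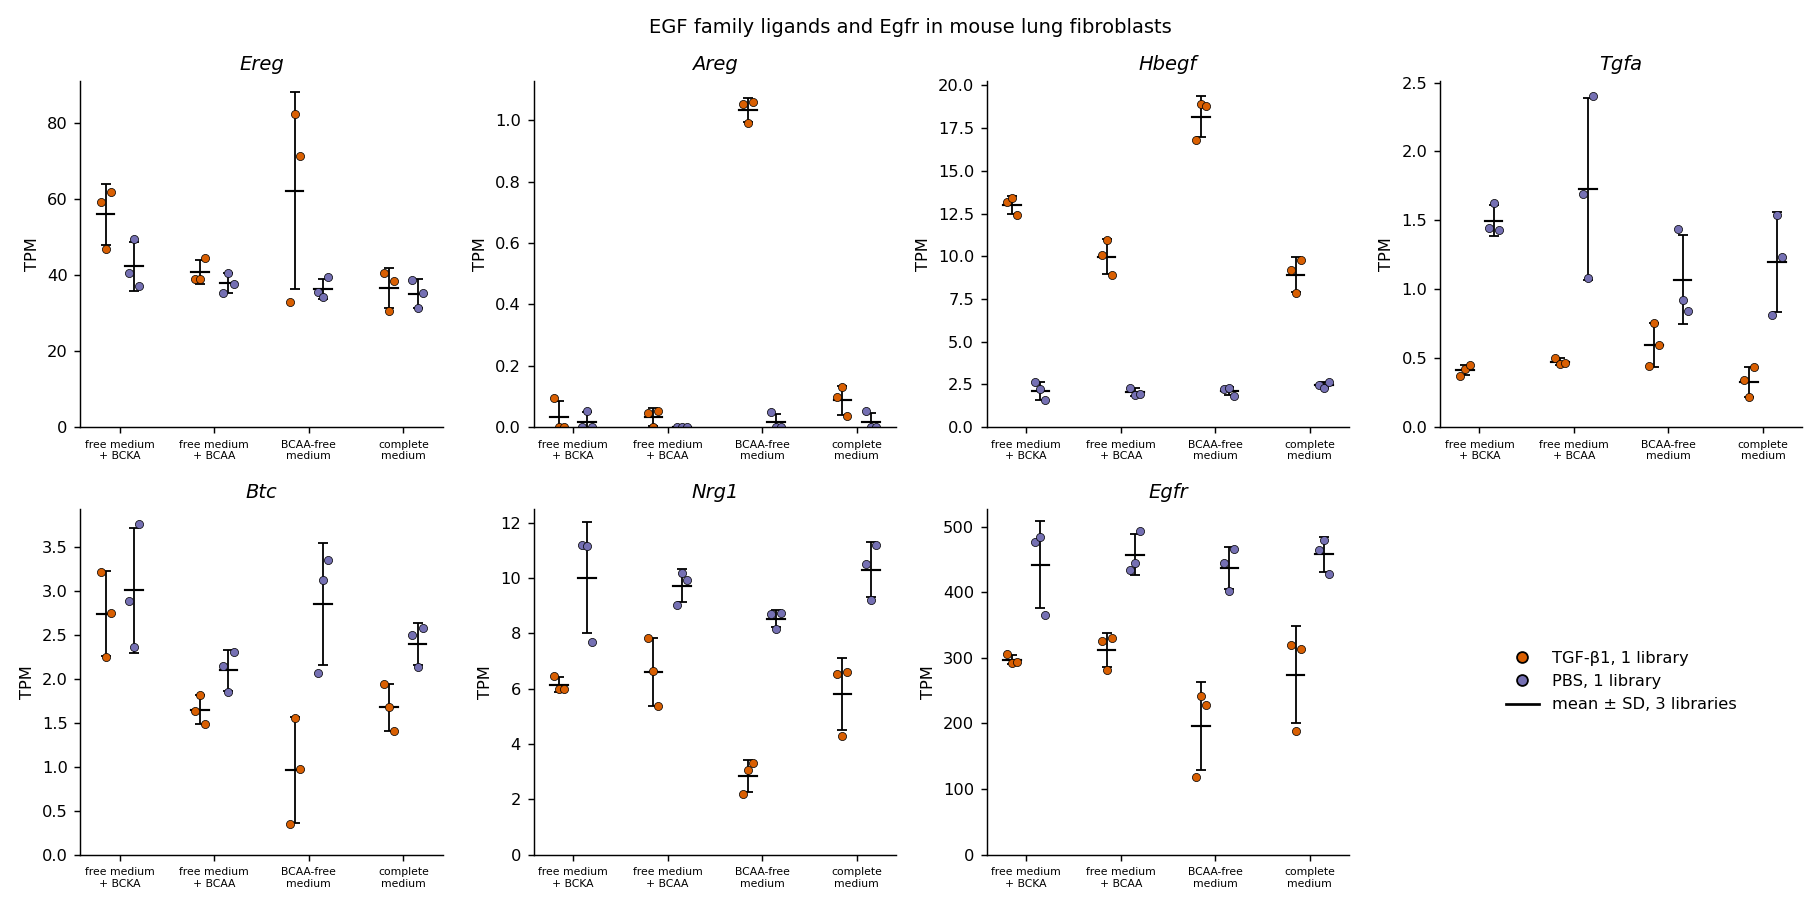
Each panel plots TPM of a gene in cultured fibroblasts by medium, with 1 point per library (orange TGF-β1, purple PBS) and the mean ± SD of 3 libraries. Hbegf is higher and Nrg1 and Egfr lower in every TGF-β1 library than in any PBS library of the same medium, and Areg is near 1 TPM only in BCAA-free medium with TGF-β1.

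Hbegf, a ligand of EGFR and ERBB4 that also binds heparan sulfate, had the largest rise under TGF-β1 among the 6 tested genes in each medium. It had 13.2, 13.4 and 12.4 TPM in TGF-β1 cultures with BCKA added, against 2.61, 2.20 and 1.55 TPM in PBS cultures. With BCAA added it had 10.1, 10.9 and 8.91 TPM under TGF-β1, against 2.29, 1.89 and 1.90 TPM under PBS. In BCAA-free medium the values were 16.8, 18.9 and 18.8 TPM under TGF-β1, against 2.21, 2.25 and 1.82 TPM under PBS. All 3 TGF-β1 libraries lay above all PBS libraries in each of these media. In complete medium the values were 9.19, 7.82 and 9.78 TPM under TGF-β1, against 2.44, 2.31 and 2.62 TPM under PBS. The log2 changes were 2.18 ± 0.13 (SE, adjusted p = 3.76e-12) with BCKA, 1.86 ± 0.13 (5.79e-11) with BCAA, 2.63 ± 0.13 (4.33e-14) without either and 1.52 ± 0.13 (1.66e-09) in complete medium.

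The Hbegf response to TGF-β1 was larger in BCAA-free than in complete medium. The difference between the 2 responses was 1.12 ± 0.18 on the log2 scale (adjusted p = 2.80e-05). Under TGF-β1, removal of BCAA raised Hbegf 2.04-fold in mean TPM (log2 change 0.95 ± 0.13, adjusted p = 1.20e-06). Hbegf averaged 9.98 ± 1.01 TPM with BCAA returned and 18.2 ± 1.2 TPM in BCAA-free medium (SD, n = 3 each), a log2 change of -0.81 ± 0.13 (adjusted p = 1.18e-05). With BCKA returned it averaged 13.0 ± 0.5 TPM, a change of -0.45 ± 0.13 from BCAA-free medium (adjusted p = 0.00422). The BCKA and BCAA groups did not overlap, but their difference of 0.36 ± 0.13 did not pass (adjusted p = 0.781). These comparisons share libraries, among them those of BCAA-free medium with TGF-β1, so they are not independent of each other. The order of the 8 groups put BCAA-free medium with TGF-β1 first, BCKA with TGF-β1 next, then BCAA and complete medium with TGF-β1, which overlapped each other, and the 4 PBS groups last, each of which overlapped its neighbour in the order.

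Ereg, a ligand of EGFR and ERBB4, was the most abundant ligand transcript of the cultures and passed the test against PBS in BCAA-free medium. There it had 33.0, 82.4 and 71.4 TPM under TGF-β1, against 35.5, 34.2 and 39.4 TPM under PBS. Libraries 2 and 3 lay above all PBS libraries and library 1, the one least like its group, lay below them. The log2 change was 0.66 ± 0.21 (adjusted p = 0.0104) with all libraries, and 1.06 (adjusted p = 3.49e-07) without library 1. Without library 2 or library 3 the call was lost (0.41, adjusted p = 0.0877, and 0.51, adjusted p = 0.0624). It was also lost with the compared groups fitted alone (0.66, adjusted p = 0.129). In complete medium Ereg had 40.6, 30.6 and 38.5 TPM under TGF-β1, against 38.8, 31.4 and 35.3 TPM under PBS, and the groups overlapped. The difference of the 2 responses was 0.61 ± 0.30 (adjusted p = 0.103) with all libraries and 1.01 (adjusted p = 6.34e-05) without library 1. With BCKA added, Ereg had 59.4, 46.8 and 61.7 TPM under TGF-β1, against 40.4, 49.5 and 37.0 TPM under PBS, a change of 0.40 ± 0.21 that did not pass (adjusted p = 0.138). It passed with libraries centred on their median (0.59, adjusted p = 0.0118), with the compared groups fitted alone (0.40, adjusted p = 0.00778) and with array weights (0.34, adjusted p = 0.0038). With BCAA added it had 38.8, 39.1 and 44.5 TPM under TGF-β1, against 35.3, 40.5 and 37.7 TPM under PBS, and overlapped (adjusted p = 0.721).

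Areg, a ligand of EGFR alone with a heparin-binding stretch, was detected at about 1 TPM in a single fibroblast group. It had 1.05, 0.99 and 1.06 TPM in BCAA-free medium with TGF-β1, against 0.048, 0 and 0 TPM in the same medium with PBS. The other 6 groups lay between 0 and 0.129 TPM, and all 3 libraries of the first group, library 1 included, were above every other fibroblast library. In the fit with no filter on low values (19856 genes) the log2(TPM + 1) change with TGF-β1 in BCAA-free medium was 1.00 ± 0.04 (adjusted p = 3.96e-14), and in complete medium 0.10 ± 0.04 (adjusted p = 0.0588). The difference of these responses was 0.91 ± 0.05 (adjusted p = 2.07e-10). Return of BCKA and of BCAA under TGF-β1 gave -0.98 ± 0.04 each (adjusted p = 1.79e-13 and 1.71e-13), and complete medium with TGF-β1 had 0.097, 0.129 and 0.036 TPM. These values are close to the limit of detection, and with TPM alone the reads behind them are unknown. Of the genes near it on chromosome 5, Ereg was also higher in these cultures (0.66, adjusted p = 0.0104), Btc was lower (-1.003, adjusted p = 7.24e-05) and Epgn was at or below 0.29 TPM in every fibroblast library.

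Btc, a ligand of EGFR and ERBB4, fell under TGF-β1 in BCAA-free medium and was not called in the other 3 media. It had 0.35, 1.55 and 0.98 TPM under TGF-β1, against 2.06, 3.12 and 3.35 TPM under PBS (log2 change -1.003 ± 0.186, adjusted p = 7.24e-05). In complete medium it had 1.93, 1.68 and 1.41 TPM under TGF-β1, against 2.49, 2.13 and 2.57 TPM under PBS (-0.35 ± 0.19, adjusted p = 0.128). It passed in complete medium with array weights (-0.39, adjusted p = 0.0059). No library of these TGF-β1 groups overlapped its PBS group. Nor did they with BCAA added (-0.23 ± 0.19, adjusted p = 0.343), while with BCKA added they did (-0.09 ± 0.19, adjusted p = 0.715). The responses in BCAA-free and complete medium differed by -0.65 ± 0.26 (adjusted p = 0.0452), which missed the threshold in 9 of the 12 fits that left out a single library. Without library 1 of BCAA-free medium with TGF-β1 it was -0.41 (adjusted p = 0.137). With BCKA returned under TGF-β1, Btc had 3.21, 2.25 and 2.74 TPM, above all libraries of BCAA-free medium (0.97 ± 0.19, adjusted p = 0.000129). With BCAA returned it had 1.64, 1.81 and 1.49 TPM (0.48 ± 0.19, adjusted p = 0.0321), and without library 1 of BCAA-free medium this change was 0.23 (adjusted p = 0.245).

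Tgfa, a ligand of EGFR, was lower under TGF-β1 than under PBS in all 4 media, at low levels. Every TGF-β1 library lay below 1 TPM, so Tgfa passed the filter only through PBS libraries, where it was high. Its calls are therefore given as a description. It averaged 0.41 ± 0.04 TPM under TGF-β1 and 1.498 ± 0.111 TPM under PBS with BCKA added (SD, n = 3 each; log2 change -0.82 ± 0.16, adjusted p = 0.000186). With BCAA added it averaged 0.47 ± 0.02 TPM under TGF-β1 and 1.73 ± 0.66 TPM under PBS (-0.86 ± 0.16, adjusted p = 0.000112). The change was smallest in BCAA-free medium, with 0.44, 0.75 and 0.59 TPM under TGF-β1, against 1.44, 0.92 and 0.84 TPM under PBS (-0.37 ± 0.16, adjusted p = 0.0447). That call was lost in 3 of 6 fits that left out a library and with libraries centred on their median (-0.29, adjusted p = 0.104). Without library 1 of BCAA-free medium with TGF-β1 it was -0.30 (adjusted p = 0.145). In complete medium Tgfa had 0.34, 0.21 and 0.43 TPM under TGF-β1, against 0.81, 1.54 and 1.24 TPM under PBS (-0.71 ± 0.16, adjusted p = 0.000698). On a log2(TPM + 1) scale such low values give understated changes.

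Nrg1 fell under TGF-β1 in every medium and reached its lowest level in BCAA-free medium. There it had 2.19, 3.06 and 3.31 TPM under TGF-β1, against 8.70, 8.17 and 8.75 TPM under PBS (log2 change -1.32 ± 0.16, adjusted p = 2.54e-07). In complete medium it had 6.53, 4.29 and 6.60 TPM under TGF-β1, against 10.5, 9.23 and 11.2 TPM under PBS (-0.75 ± 0.16, adjusted p = 0.000542). With BCKA it averaged 6.15 ± 0.28 TPM under TGF-β1 and 10.0 ± 2.0 TPM under PBS, and with BCAA 6.61 ± 1.22 TPM under TGF-β1 and 9.72 ± 0.60 TPM under PBS. The log2 changes were -0.61 ± 0.16 (adjusted p = 0.00354) and -0.50 ± 0.16 (adjusted p = 0.0133), and the second was not called with libraries centred on their median (-0.33, adjusted p = 0.0851). In none of the media did the TGF-β1 and PBS libraries overlap. The response was stronger in BCAA-free than in complete medium by -0.57 ± 0.23 (adjusted p = 0.0422), a call lost in 8 of 12 fits without a single library. Without library 1 of BCAA-free medium with TGF-β1 this difference was -0.44 (adjusted p = 0.0908). Under TGF-β1, Nrg1 was higher with BCAA returned (0.98 ± 0.16, adjusted p = 1.85e-05) and with BCKA returned (0.90 ± 0.16, adjusted p = 5.16e-05) than in BCAA-free medium.

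Egfr, the receptor gene, followed Nrg1 at a level far above any ligand. It had 305, 292 and 294 TPM under TGF-β1 with BCKA added, against 476, 484 and 366 TPM under PBS. With BCAA added it had 325, 282 and 329.7 TPM under TGF-β1, against 434, 445 and 493 TPM under PBS. In BCAA-free medium it had 119, 241 and 229 TPM under TGF-β1, against 444, 402 and 465 TPM under PBS. Every PBS library was above every TGF-β1 library in each medium. In complete medium it had 319.7, 189 and 314 TPM under TGF-β1, against 464, 480.4 and 428 TPM under PBS. The log2 change was -0.56 ± 0.20 (adjusted p = 0.0271) with BCKA, -0.55 ± 0.20 (0.0302) with BCAA, -1.22 ± 0.20 (1.89e-05) in BCAA-free and -0.77 ± 0.20 (0.00309) in complete medium. The calls with BCKA and with BCAA did not hold when libraries were centred on their median (-0.36, adjusted p = 0.109, and -0.38, adjusted p = 0.0959), and were lost in 5 of 6 and 4 of 6 fits that left out a library. The larger response in BCAA-free medium did not pass as a difference (-0.44 ± 0.285, adjusted p = 0.212).

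Under TGF-β1 the medium changed 4 or 5 of the 6 tested genes, in comparisons where most genes were called. Removal of BCAA changed 5 of 6 (2 higher, 3 lower) with 60.3% of all genes called, and return of BCAA and of BCKA changed 4 of 6 each (3 higher, 1 lower) with 58.3% and 58.4% called. The difference of the TGF-β1 responses in BCAA-free and complete medium changed 3 of 6 (1 higher, 2 lower) with 47.6% called. The fall of Egfr with removal of BCAA (-0.51 ± 0.20, adjusted p = 0.0345) became -0.18 (adjusted p = 0.305) without library 1 of BCAA-free medium with TGF-β1, and its rise with BCKA became 0.34 (adjusted p = 0.0593). The fall of Btc with removal (-0.49 ± 0.19, adjusted p = 0.0275) became -0.25 (adjusted p = 0.219) without it. The rise of Ereg with removal (0.66 ± 0.21, adjusted p = 0.0110) became 1.06 (adjusted p = 4.03e-07) without that library and was lost in 3 of 6 fits without another, and its change with return of BCAA, -0.50 ± 0.21 with all libraries (adjusted p = 0.0502), became -0.90 (adjusted p = 4.69e-06). The change of Ereg with BCKA returned, -0.06 with all libraries, became -0.46 (adjusted p = 0.00541). With the compared groups fitted alone, the removal calls of Ereg, Btc and Egfr were lost (adjusted p = 0.151, 0.136 and 0.248). The 5 mesothelial markers moved in the same comparisons (5 of 5 lower with removal of BCAA and 5 of 5 higher with either return), and their part was not tested. BCKA set against BCAA under TGF-β1 called 0 of 6, with 35 genes (0.268%) called in all by limma and 509 at an unadjusted p under 0.05.

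Without TGF-β1 the media made no call in the family. Removal of BCAA under PBS changed 0 of 6, with 0.91% of all genes called (119 genes, and 987 at an unadjusted p under 0.05). Return of BCAA changed 0 of 6 with 0.26% called (34 genes, and 769 at an unadjusted p under 0.05), and return of BCKA 0 of 6 with 0.665% called (87 genes, and 884). The largest of these 18 differences was Tgfa with BCAA returned, at 0.38 ± 0.16 (adjusted p = 0.731). Nrg1 averaged 8.54 ± 0.32 TPM in BCAA-free medium and 10.3 ± 1.0 TPM in complete medium without overlap (-0.24 ± 0.16, adjusted p = 0.889).

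**Figure D3:**
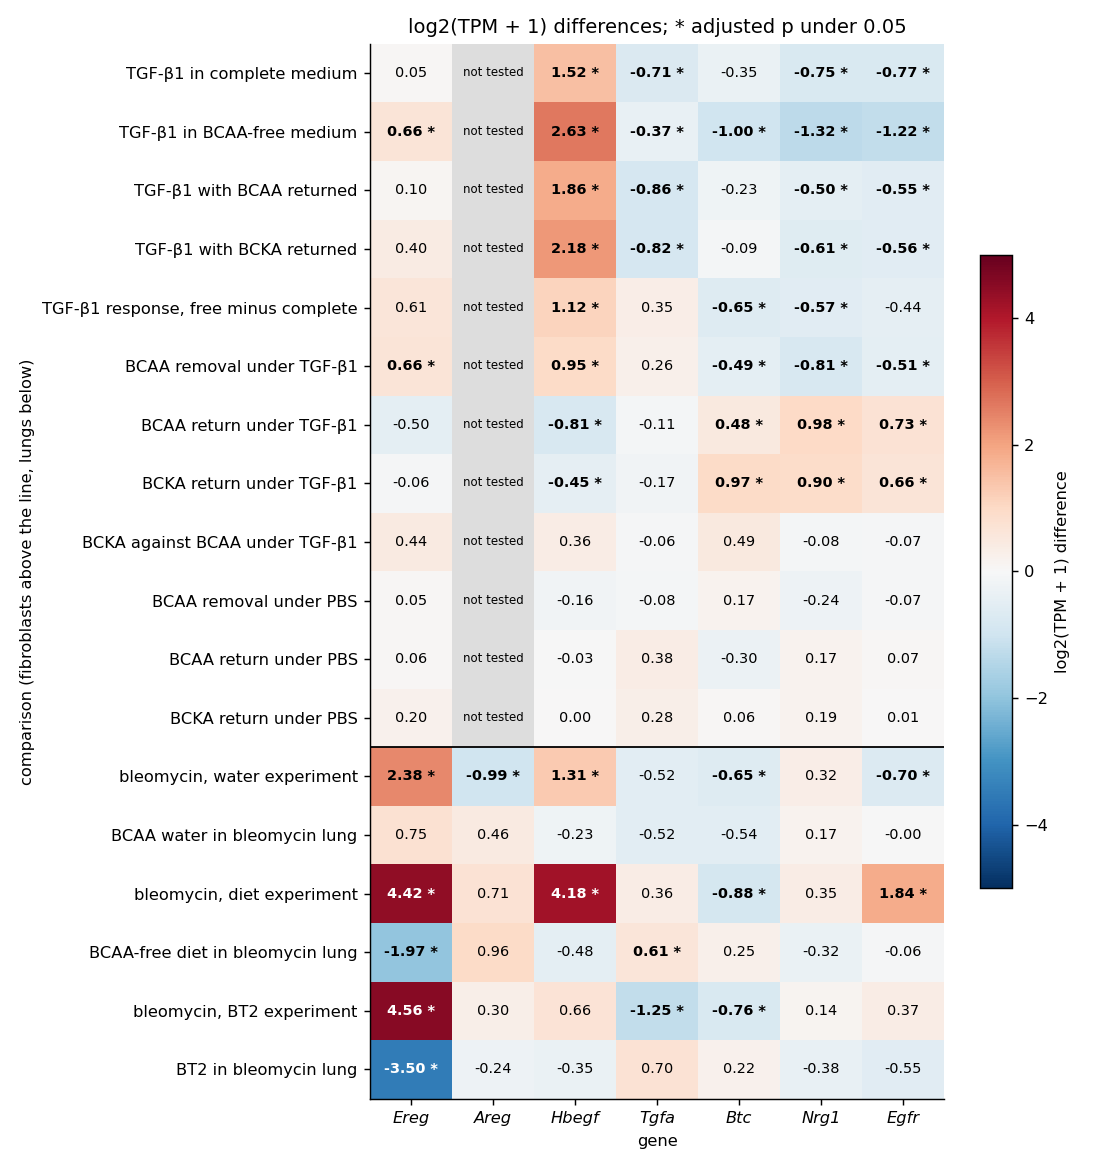
Each cell gives the log2(TPM + 1) difference of a gene (columns) in a comparison (rows), with red for higher and blue for lower in the first-named condition and a star where the adjusted p is under 0.05. Hbegf is starred in 8 of 12 fibroblast rows and Ereg in 5 of 6 lung rows, and grey cells mark Areg, which was not tested in fibroblasts.

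Across the 24 fibroblast libraries, Egfr and Nrg1 tracked each other and ran against Hbegf. Pearson's r on log2(TPM + 1) was 0.936 for Nrg1 with Egfr, -0.828 for Hbegf with Nrg1 and -0.815 for Hbegf with Egfr, as a description over libraries that share the TGF-β1 contrast. The genes most like Hbegf were Il11 (r = 0.988), a cytokine that TGF-β induces in fibroblasts, Lif (0.986), a cytokine of the same family, and Pmepa1 (0.985), a feedback inhibitor of TGF-β signalling. Those most like Egfr were Setbp1 (0.986), Cdk14 (0.979) and Ccbe1 (0.976), and those most like Nrg1 were Dzip1 (0.974), St3gal1 (0.965) and Zbtb16 (0.964). Ereg was most like Cd44 (0.834), Sulf1 (0.809) and Il1rl1 (0.798). Tgfa was most like Gabrq (0.931), Ypel1 (0.916) and Shisa9 (0.909), and Btc most like Pigh (0.842), Alcam (0.842) and Vegfc (0.836).

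Of the other receptors of the family, Erbb2 was the most abundant in these cells. Erbb2, the co-receptor without a ligand of its own, averaged 45.8 ± 4.4 TPM under TGF-β1 and 54.8 ± 3.4 TPM under PBS in BCAA-free medium (log2 change -0.26, adjusted p = 0.0256). In complete medium Erbb2 averaged 43.6 ± 5.0 TPM under TGF-β1 and 60.5 ± 0.7 TPM under PBS (-0.47, adjusted p = 0.000378). Erbb3 averaged at most 0.86 TPM in any fibroblast group and Erbb4 at most 0.012 TPM. Of 8 other ERBB ligands and receptors, 3 passed the filter. In BCAA-free medium TGF-β1 raised 1 and lowered 1 of these 3, with 64.1% of all genes called. In complete medium it raised 0 and lowered 2, with 48.6% of all genes called. Egf, the founding ligand, rose to 2.48 ± 0.68 TPM with TGF-β1 in BCAA-free medium, against 1.43 ± 0.35 TPM with PBS (0.51, adjusted p = 0.0288).

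The lists of ligand release and receptor signalling are given as counts beside the share of all genes called, 64.1% in BCAA-free medium and 48.6% in complete medium. Of 10 shedding proteases and cofactors, TGF-β1 raised 6 and lowered 2 in BCAA-free medium, where the median of the list was 0.40 on the log2 scale and that of all genes -0.06. In complete medium it raised 5 and lowered 2, with a median of 0.12 against -0.20. Timp3, an inhibitor of the main ligand sheddase ADAM17, averaged 446 ± 173 TPM under TGF-β1 and 51.5 ± 4.4 TPM under PBS in BCAA-free medium (log2 change 3.01, adjusted p = 3.2e-12). In complete medium Timp3 averaged 179 ± 18 TPM under TGF-β1 and 57.8 ± 5.7 TPM under PBS (1.61, adjusted p = 2.42e-07). Rhbdf2, which brings ADAM17 to the cell surface, rose by 1.72 on the log2 scale in BCAA-free medium (adjusted p = 4.92e-11) and by 0.86 in complete medium (5.85e-06). Adam12, a protease known to cut Hbegf, rose by 0.80 and 0.85 in these media (adjusted p = 0.000823 and 0.000735). Of 12 adaptors and turnover genes 11 were tested: 3 rose and 2 fell in BCAA-free medium and 0 rose and 2 fell in complete medium, counts below the share over all genes, with the adaptor Gab1 lower in both (-0.57, adjusted p = 0.0012, and -0.81, adjusted p = 5.52e-05).

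Feedback inhibitors and ERK target genes moved in both directions. Of 14 feedback inhibitors, TGF-β1 raised 6 and lowered 4 in BCAA-free medium and raised 3 and lowered 3 in complete medium, near the 64.1% and 48.6% of all genes called. Dusp4, an ERK phosphatase, averaged 285 ± 109 TPM under TGF-β1 and 25.7 ± 4.4 TPM under PBS in BCAA-free medium (3.37, adjusted p = 2.68e-12), and its response exceeded that in complete medium by 2.49 (adjusted p = 3.98e-07). Dusp5, a nuclear ERK phosphatase, did likewise (1.77, adjusted p = 1.53e-08, and a difference of 1.85, adjusted p = 3.66e-06). Errfi1, which binds and blocks the EGFR kinase, fell to 198 ± 63 TPM under TGF-β1 in BCAA-free medium, against 402 ± 9 TPM under PBS (-1.08, adjusted p = 5.2e-06). In complete medium it rose instead, to 595 ± 71 TPM under TGF-β1, against 388 ± 27 TPM under PBS (0.61, adjusted p = 0.00367), and the difference of the responses was -1.69 (adjusted p = 3.42e-06). Of 14 ERK targets, 4 rose and 5 fell with TGF-β1 both in BCAA-free and in complete medium, against the same shares of all genes. Fos, an immediate early gene, averaged 14.1 ± 3.2 TPM under TGF-β1 and 147 ± 34 TPM under PBS in BCAA-free medium (-3.29, adjusted p = 3.53e-13), while Etv4, a slower ERK target, rose by 2.66 (adjusted p = 9.18e-09). The mesothelial markers fell in the same contrasts, and their part in the values was not tested. With TGF-β1 5 of 5 were lower in each of the 4 media, where 44.8% to 64.1% of all genes were called.

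In lungs bleomycin raised Ereg and lowered Btc in all 3 experiments, while the other genes were called in some experiments and not in others. In the water experiment it changed 5 of 7 (2 higher, 3 lower) with 21.9% of 17209 genes called. In the diet experiment it changed 4 of 7 (3 higher, 1 lower) with 60.9% of 18593 genes called. In the BT2 experiment it changed 3 of 7 (1 higher, 2 lower) with 30.6% of 18151 genes called. The median of all genes was 0.56 on the log2 scale in the diet comparison, against 0.09 in the water and -0.02 in the BT2 comparison. BCAA in the water changed 0 of 7 with 1.2% of genes called (207 genes by limma, and 2896 at an unadjusted p under 0.05), the BCAA-free diet changed 2 of 7 (1 higher, 1 lower) with 10.1% called, and BT2 changed 1 of 7 (lower) with 11.8% called. In each experiment the bleomycin comparison and the intervention comparison share the bleomycin lungs.

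**Figure D4:**
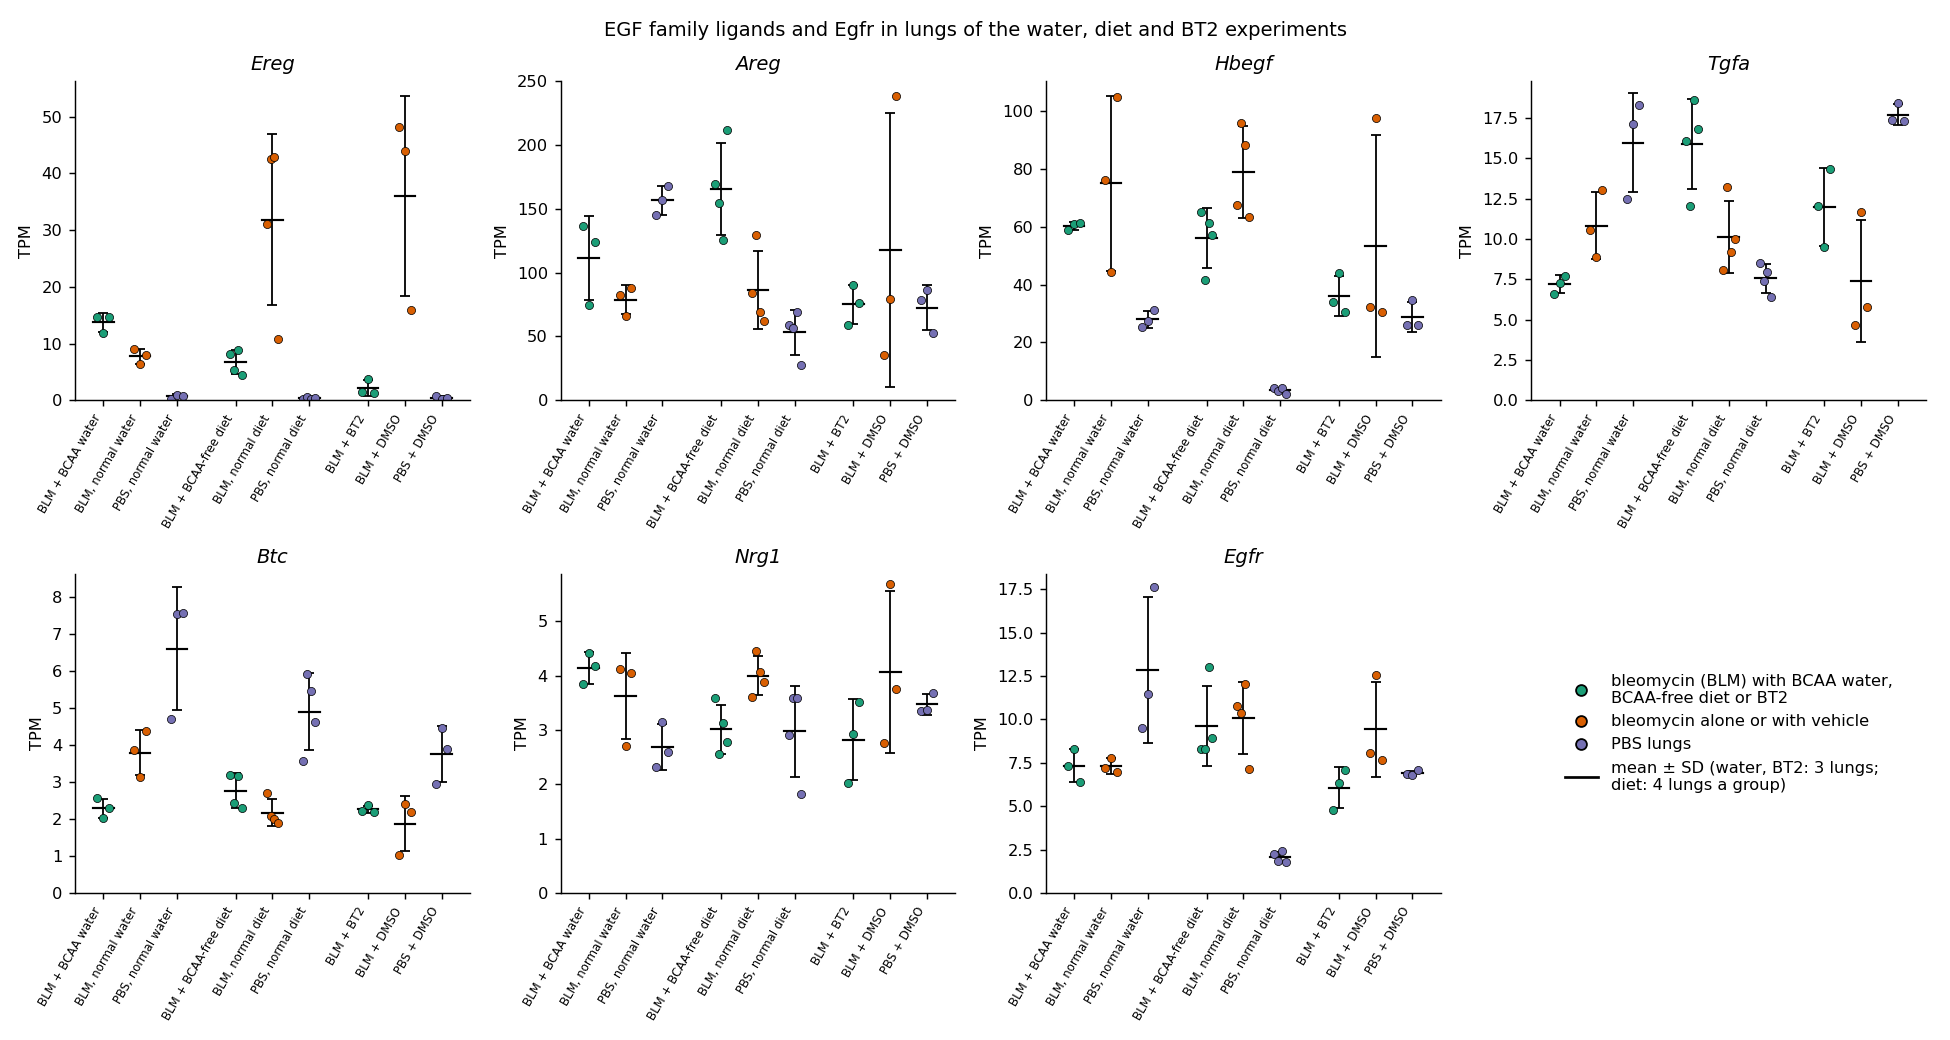
Each panel plots TPM of a gene in 30 lungs of 3 experiments, with 1 point per lung (green bleomycin with BCAA water, BCAA-free diet or BT2, orange bleomycin alone or with vehicle, purple PBS) and the group mean ± SD. Ereg is under 1 TPM in all 10 PBS lungs and above it in all bleomycin lungs, and Hbegf and Egfr are lowest in the PBS lungs of the diet experiment.

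Ereg was nearly silent in PBS lungs and appeared after bleomycin. All 10 PBS lungs lay below 1 TPM, so Ereg passed the filter only through bleomycin lungs, where it was high. Its bleomycin calls are therefore given as a description. In the water experiment it had 8.97, 6.36 and 7.95 TPM in BLM lungs, against 0.28, 0.97 and 0.83 TPM in PBS lungs (log2 change 2.38 ± 0.21, adjusted p = 5.62e-05). In the diet experiment it had 31.1, 42.5, 42.9 and 10.8 TPM in BLM lungs, against 0.20, 0.59, 0.29 and 0.40 TPM in PBS lungs (4.42 ± 0.37, adjusted p = 6.20e-07). In the BT2 experiment it had 48.2, 44.0 and 15.8 TPM in BLM lungs, against 0.71, 0.26 and 0.32 TPM in PBS lungs (4.56 ± 0.43, adjusted p = 0.000155). All 10 BLM lungs lay above all 10 PBS lungs, and no single library decided a call.

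The BCAA-free diet and BT2 lowered Ereg in bleomycin lungs, and BCAA in the water did not pass the test. With the BCAA-free diet it had 8.19, 5.33, 8.87 and 4.43 TPM, against 31.1, 42.5, 42.9 and 10.8 TPM in BLM lungs on normal diet (-1.97 ± 0.37, adjusted p = 0.00542). With BT2 it had 1.40, 3.75 and 1.28 TPM, against 48.2, 44.0 and 15.8 TPM with vehicle (-3.50 ± 0.43, adjusted p = 0.00496). Neither pair of groups overlapped, and both groups stayed above all PBS lungs of their experiment. With BCAA in the water Ereg had 14.6, 11.8 and 14.7 TPM, against 8.97, 6.36 and 7.95 TPM with normal water, without overlap, but the change did not pass (0.75 ± 0.21, adjusted p = 0.111). Whether the interventions differ from each other was not tested, since each stands in its own experiment.

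The genes most like Ereg across the 30 lungs, with each experiment's mean taken off, were Mrc1 (r = 0.974) and Arg1 (0.972), both known from macrophages of the repair type, and Tfpi2 (0.967), a protease inhibitor. Mrc1 averaged 49.6 ± 12.7 TPM with the BCAA-free diet and 125 ± 34 TPM in BLM lungs on normal diet. It averaged 38.5 ± 10.9 TPM with BT2 and 185 ± 49 TPM with vehicle. The sum of 6 macrophage markers, Mrc1 among them, was higher instead: 14050 to 19390 TPM with the BCAA-free diet, against 7992 to 11300 TPM on normal diet. It was 19210 to 20750 TPM with BT2, against 11330 to 16370 TPM with vehicle. Mrc1 made up little of this sum, which follows its most abundant genes and does not give the direction of each marker. The 8 fibroblast markers summed to 1063 to 1999 TPM with the BCAA-free diet, against 2810 to 3612 TPM on normal diet, and to 723 to 2016 TPM with BT2, against 2732 to 3369 TPM with vehicle. The part of these cells in the Ereg values was not tested.

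Hbegf rose with bleomycin in the water and diet experiments. It had 76.0, 44.4 and 105 TPM in BLM lungs of the water experiment, against 25.2, 27.4 and 31.2 TPM in PBS lungs (1.31 ± 0.25, adjusted p = 0.00419). It had, in the diet experiment, 67.4, 96.0, 88.3 and 63.4 TPM in BLM lungs, against 4.23, 3.04, 4.17 and 2.23 TPM in PBS lungs (4.18 ± 0.20, adjusted p = 1.35e-08). Relative to the median of all genes, that change was 3.62 (adjusted p = 2.43e-08). The PBS lungs of the diet experiment, low in endothelial and leukocyte markers as given above, were the lowest of all lungs for Hbegf, and the part of those cells in the change was not tested. In the BT2 experiment Hbegf had 32.1, 97.6 and 30.4 TPM in BLM lungs, against 25.8, 34.7 and 25.9 TPM in PBS lungs, and the groups overlapped (0.66 ± 0.39, adjusted p = 0.22). No intervention passed the test for Hbegf, with -0.23 ± 0.25 for BCAA water, -0.48 ± 0.20 for the BCAA-free diet and -0.35 ± 0.39 for BT2 (adjusted p = 0.695, 0.165 and 0.555). The genes most like Hbegf in lungs were Sptlc2 (0.978), Msn (0.976) and Pxdn (0.975).

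Areg, the ligand with the highest mean TPM in every lung group though not in every single lung, did not move one way with bleomycin. In the water experiment it fell to 82.2, 66.04 and 88.0 TPM in BLM lungs, against 145, 157 and 168 TPM in PBS lungs (-0.99 ± 0.21, adjusted p = 0.00791), without overlap. In the diet experiment it had 84.4, 129.6, 69.4 and 62.0 TPM in BLM lungs, against 58.8, 56.6, 69.4 and 27.6 TPM in PBS lungs (0.71 ± 0.29, adjusted p = 0.0516). Relative to the median of all genes the diet value was 0.14 (adjusted p = 0.665). In the BT2 experiment the BLM lungs had 35.2, 79.0 and 239 TPM, against 78.8, 86.5 and 52.6 TPM in PBS lungs, and the BLM lungs spread over the whole PBS range and beyond (0.30 ± 0.55, adjusted p = 0.712). With the BCAA-free diet Areg had 169, 155, 126 and 212 TPM, against 84.4, 129.6, 69.4 and 62.0 TPM in BLM lungs on normal diet. That change of 0.96 ± 0.29 missed the threshold (adjusted p = 0.0564) and passed it with libraries centred on their median (1.09, adjusted p = 0.013), with array weights (1.18, adjusted p = 0.000999) and in 2 of 8 fits that left out a library. With BCAA water it had 136, 74.4 and 124 TPM, and with BT2 59.1, 90.0 and 76.2 TPM, both overlapping their bleomycin groups (adjusted p = 0.305 and 0.787). No gene followed Areg closely across lungs, the nearest being Rnase4 (r = 0.696), Arc (0.691) and Ptpdc1 (0.689).

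Btc fell with bleomycin in every experiment, at levels of a few TPM. It had, in the diet experiment, 2.72, 2.09, 2.01 and 1.89 TPM in BLM lungs, against 3.57, 5.92, 5.48 and 4.64 TPM in PBS lungs (-0.88 ± 0.18, adjusted p = 0.000824). It had, in the water experiment, 3.88, 3.15 and 4.37 TPM in BLM lungs, against 4.69, 7.56 and 7.59 TPM in PBS lungs (-0.65 ± 0.21, adjusted p = 0.0469). It had, in the BT2 experiment, 1.02, 2.40 and 2.19 TPM in BLM lungs, against 2.95, 4.46 and 3.89 TPM in PBS lungs (-0.76 ± 0.25, adjusted p = 0.0479). No BLM lung reached a PBS lung of its experiment. The calls of the water and BT2 experiments were each lost in 5 of 6 fits that left out a library. BCAA water gave 2.56, 2.04 and 2.28 TPM, below all BLM lungs on normal water, but did not pass (-0.54 ± 0.21, adjusted p = 0.228). Its neighbour Ereg thus rose where Btc fell, with r = -0.763 between them across the 30 lungs, while Epgn averaged at most 0.68 TPM in any lung group. The genes most like Btc were Cnksr2 (0.885), Rdh10 (0.866) and Mei4 (0.866).

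Tgfa fell with bleomycin in the BT2 experiment and rose with the BCAA-free diet. It had 4.69, 11.7 and 5.78 TPM in BLM lungs with vehicle, against 17.4, 18.5 and 17.3 TPM in PBS lungs (-1.25 ± 0.29, adjusted p = 0.0106), without overlap. With the BCAA-free diet it had 16.1, 12.0, 18.7 and 16.8 TPM, against 8.11, 13.2, 9.17 and 10.0 TPM in BLM lungs on normal diet (0.61 ± 0.17, adjusted p = 0.0445). That call was lost in 6 of 8 fits that left out a library. Bleomycin itself did not pass in the diet experiment, where the direction was the other way. Tgfa averaged 10.1 ± 2.2 TPM in BLM lungs on normal diet and 7.56 ± 0.91 TPM in PBS lungs, with overlap (0.365 ± 0.173, adjusted p = 0.085). Relative to the median of all genes that difference was -0.20 (adjusted p = 0.398). In the water experiment Tgfa had 10.6, 8.88 and 13.0 TPM in BLM lungs, against 12.5, 17.1 and 18.3 TPM in PBS lungs (-0.52 ± 0.19, adjusted p = 0.0703), a change that passed with libraries centred on their median (-0.61, adjusted p = 0.0131), with array weights (-0.41, adjusted p = 0.0497) and without PBS lung 1 (-0.68, adjusted p = 0.0364). With BT2 it had 12.1, 9.50 and 14.4 TPM, overlapping the vehicle lungs (0.70 ± 0.29, adjusted p = 0.125), and the change was 1.05 (adjusted p = 0.00808) without vehicle lung 2 and 0.95 (adjusted p = 0.00769) with array weights. Markers of type 2 alveolar cells moved in the same contrasts. With the BCAA-free diet 6 of 6 were higher (10.1% of all genes called), and with BT2 6 of 6 (11.8% called). With bleomycin in the BT2 experiment 5 of 6 were lower (30.6% called). The sum of the 6 markers was 2276 to 15520 TPM in BLM lungs with vehicle, against 46990 to 59900 TPM in PBS lungs. Its part in the Tgfa values was not tested. Pde8b, Atp2a3 (0.938 each) and Otud1 (0.934) were most like Tgfa.

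Nrg1 was not called in any lung comparison. It lay between 2.03 and 5.68 TPM in all 20 bleomycin lungs and between 1.82 and 3.69 TPM in all 10 PBS lungs. The largest difference was -0.38 ± 0.26 with BT2 (adjusted p = 0.33). Its bleomycin differences were 0.32 ± 0.19, 0.35 ± 0.18 and 0.14 ± 0.26 in the water, diet and BT2 experiments, and that of the diet experiment turned to -0.21 relative to the median of all genes. Ckap4 (0.757), AI506816 (0.735) and Pdia5 (0.726) were nearest to it.

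Egfr moved in opposite directions with bleomycin in the water and diet experiments. It had 7.18, 7.80 and 6.96 TPM in BLM lungs on normal water, against 9.52, 11.5 and 17.6 TPM in PBS lungs (-0.70 ± 0.21, adjusted p = 0.0355). In the diet experiment it had 10.8, 10.4, 12.1 and 7.13 TPM in BLM lungs, against 2.22, 1.83, 2.44 and 1.79 TPM in PBS lungs (1.84 ± 0.19, adjusted p = 3.59e-06), and 1.27 (adjusted p = 0.000343) relative to the median of all genes. In the BT2 experiment it had 8.07, 12.6 and 7.64 TPM in BLM lungs, against 6.83, 6.77 and 7.07 TPM in PBS lungs (0.37 ± 0.23, adjusted p = 0.242). Groups did not overlap in any of the 3 experiments. The BLM lungs of the 3 experiments lay at 6.96 to 12.6 TPM. The PBS lungs lay at 9.52 to 17.6 TPM in the water, 1.79 to 2.44 TPM in the diet and 6.77 to 7.07 TPM in the BT2 experiment. These ranges are a description across separately normalised tables. The call of the water experiment was lost in 5 of 6 fits that left out a library. With BT2 Egfr had 4.77, 6.32 and 7.08 TPM, below all vehicle lungs, a change of -0.55 ± 0.23 that did not pass (adjusted p = 0.13) unless libraries were centred on their median (-0.66, adjusted p = 0.0419). BCAA water and the BCAA-free diet gave -0.00 ± 0.21 and -0.06 ± 0.19. Chst15 (0.933), Zc3h12c (0.93) and Fmnl2 (0.929) were most like Egfr.

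Of the partner receptors, Erbb3 was expressed in lungs. Erbb3, the main receptor of neuregulin with Erbb2, averaged 13.5 ± 7.0 TPM in BLM lungs with vehicle and 37.6 ± 5.2 TPM in PBS lungs of the BT2 experiment (-1.53, adjusted p = 0.00872). It averaged 21.6 ± 4.3 TPM in BLM lungs on normal diet and 30.2 ± 4.0 TPM in PBS lungs (-0.47, adjusted p = 0.0143). It averaged 33.4 ± 0.8 TPM with the BCAA-free diet, higher than on normal diet (0.62, adjusted p = 0.0191), and 35.9 ± 6.8 TPM with BT2, higher than with vehicle (1.46, adjusted p = 0.0286). Erbb3 was the only called gene among the 4 tested of 8 other ERBB ligands and receptors in each of these 4 comparisons. Of all genes, bleomycin called 30.6% in the BT2 and 60.9% in the diet experiment, the BCAA-free diet 10.1% and BT2 11.8%. In both water comparisons 0 of 4 were called, where bleomycin called 21.9% and BCAA water 1.2% of all genes.

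Genes of ligand release were higher with bleomycin wherever they were called. Adam12 and Etv4 were called in the same direction as Ereg in all 5 lung comparisons that called Ereg. How many other genes did so was not counted, and within the diet and BT2 experiments these comparisons share bleomycin lungs. Of 10 shedding proteases and cofactors, bleomycin raised 6 and lowered 0 in the water, raised 9 and lowered 0 in the diet and raised 5 and lowered 0 in the BT2 experiment. Of all genes, 21.9%, 60.9% and 30.6% were called in these comparisons, and 2555 of 3773, 9047 of 11328 and 3132 of 5550 called genes were higher in the water, diet and BT2 experiments. Adam12 averaged 3.00 ± 0.52 TPM in BLM lungs and 0.39 ± 0.05 TPM in PBS lungs of the water experiment (1.52, adjusted p = 0.000514), and rose by 2.56 and 3.12 in the diet and BT2 experiments (adjusted p = 1.27e-06 and 0.000142). It fell with the BCAA-free diet (1.00 ± 0.20 TPM, against 7.20 ± 2.64 TPM on normal diet, -1.99, adjusted p = 0.000342) and with BT2 (1.91 ± 0.95 TPM, against 12.3 ± 3.3 TPM with vehicle, -2.21, adjusted p = 0.00573). Of 14 feedback inhibitors, bleomycin raised 13 and lowered 1 in the diet experiment, where 60.9% of all genes were called and 14 of 14 ERK targets rose. In the water experiment it raised 1 and lowered 2 of the feedback inhibitors, and in the BT2 experiment it raised 2 and lowered 1. Errfi1 fell to 139 ± 11 TPM in BLM lungs of the water experiment, against 288 ± 74 TPM in PBS lungs (-1.02, adjusted p = 0.00801). Of the ERK targets, 2 rose and 2 fell in the water experiment, and 7 rose and 3 fell in the BT2 experiment. Etv4 rose with bleomycin in the water, diet and BT2 experiments (1.98, 2.63 and 2.82, adjusted p = 4.62e-05, 2.98e-05 and 0.000272), fell with the BCAA-free diet (-2.12, adjusted p = 0.00236) and BT2 (-1.53, adjusted p = 0.0182), and rose with BCAA water (1.32, adjusted p = 0.0103).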

How the data were processed

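Poly(A) RNA-seq of 24 fibroblast and 30 lung libraries was deposited by the authors as 4 tables of TPM, each column summing to the same total. FastQC, Trim Galore, HISAT2, featureCounts (Subread), DESeq2 and the build mm39 are named, without roles, in the submitters' processing notes, and no formula for TPM is stated there. TPM keeps no counts, so depth is unknown and no counting interval is given. The extraction text of the labels speaks of heart tissue, while the samples are labelled lung.

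Each table was fitted alone with limma 3.58.1 (R 4.3.3, trend) on log2(TPM + 1), over genes at 1 TPM or more in at least 3 libraries, with a mean per group and Benjamini-Hochberg adjustment over all tested genes. Fold changes on this scale understate the change of low genes. Python 3.11.15 and matplotlib 3.10.9 drew the figures. Scripts were tested on simulated data. Named were all 7 members, up to 3 called genes with the largest change per list and comparison, followed across the other comparisons, and the 3 genes most alike each member by Pearson's r (SD of at least 0.5). The members and lists were chosen with earlier results of these data known. Alternatives were other pseudocounts, filters, centring, array weights, the compared groups alone, a replicate block and leaving out each library.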

Additional observations from a re-analysis of the deposited data

Results flagged for a closer look

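Egfr in lung 3 of the bleomycin group on the BCAA-free diet, at 13.0 TPM, stood apart from the other 3 lungs of its group, the nearest of which had 8.94 TPM. It was 1 of 21 combinations of gene and diet group examined, and chance sets apart about 1 in 20 groups. The same library was the least like its group over all genes.

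The response to TGF-β1 differed between BCAA-free and complete medium for 3 ligands in limma's test of the difference: 1.12 for Hbegf, -0.65 for Btc and -0.57 for Nrg1 on the log2 scale (adjusted p = 2.80e-05, 0.0452 and 0.0422). The calls of Btc and Nrg1 were lost with no filter, with the compared groups only and with the replicate block. They were also lost in 9 and 8 of 12 fits that left out a library, and that of Hbegf in 0 of 12.

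The bleomycin difference of Egfr was -0.70 with normal water, 1.84 on normal diet and 0.37 with the BT2 vehicle. All BLM lungs lay below all PBS lungs in the water experiment and above them in the diet and BT2 experiments, and the difference between experiments was not tested. The PBS lungs of the diet experiment, with Egfr at 2.07 ± 0.31 TPM (SD, n = 4), were also low in endothelial markers, whose part was not tested.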

How the results depend on the processing

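No alternative turned the direction of a called change. Of the members called, the response to TGF-β1 in BCAA-free minus complete medium kept 1 of 3 with the compared groups only and 1 with the replicate block, removal of BCAA under TGF-β1 had 2 in place of 5 and return of BCAA 2 in place of 4 with the compared groups only, and TGF-β1 with BCAA returned had 2 in place of 4 with median centring. Bleomycin in the water experiment had 3 in place of 5 with no filter, the compared groups only or the replicate block. The BCAA-free diet had 1 in place of 2 with a pseudocount of 0.1, no filter, the compared groups only or the replicate block, and 5 with array weights. BT2 had 2 with median centring and 3 with array weights in place of 1. Array weights gave 3 for BCKA against BCAA, 1 for return of BCKA under PBS and 3 for BCAA water, in place of 0.

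Leaving out each library gave 4 to 6 members for TGF-β1 in BCAA-free medium, 4 to 4 in complete medium, 3 to 4 with BCAA and 3 to 4 with BCKA returned, and 1 to 3 for the difference of responses. It gave 3 to 4 for removal of BCAA, 3 to 4 for its return and 4 to 4 for return of BCKA. In lungs it gave 3 to 6, 4 to 5 and 2 to 3 for bleomycin in the water, diet and BT2 experiments, 1 to 3 for the BCAA-free diet and 1 to 2 for BT2. The cause was not tested.

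Counts over all genes moved by over 1.5 times for BCAA water (207 genes, 38 with the compared groups only, 45 with no filter, 64 with the replicate block, 124 with a pseudocount of 0.1, 348 with median centring, 2500 with array weights, 14 without normal-water BLM lung 3 and 591 without normal-water BLM lung 2) and BT2 (2133 genes, 190 with the compared groups only, 819 with no filter, 3315 with median centring, 5098 with array weights, 138 without BT2 lung 3 and 4989 without vehicle lung 2). The BCAA-free diet had 1160 with the compared groups only and 5788 with array weights, against 1885. Array weights gave 9132 against 5856 for TGF-β1 with BCAA returned, 9926 against 6225 for the difference of responses and 6265 against 3773 for bleomycin in the water experiment, and removal of BCAA under TGF-β1 had 4795 against 7895 with the compared groups only. BCKA against BCAA had 96 with the compared groups only and 535 with array weights, against 35. Under PBS, array weights gave 2611, 2039 and 1509 against 119, 34 and 87 for removal of BCAA, return of BCAA and return of BCKA, a pseudocount of 0.1 gave 40 for removal and 13 for return of BCAA, and the compared groups only gave 21 for return of BCAA and 51 for return of BCKA. A pseudocount of 0.5 gave 16 for return of BCAA. With a library left out, the lowest counts were 38 for removal of BCAA, 4 for return of BCAA and 44 for return of BCKA under PBS, 16 for BCKA against BCAA, 908 for the BCAA-free diet and 3334, against 5550, for bleomycin in the BT2 experiment.

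Deviations of fibroblast libraries with the same number from their group means had a median correlation of 0.011 over 84 pairs. The range was -0.49 to 0.54, with 29 pairs over 0.1. This does not settle whether such libraries share a preparation, so the replicate block is given as an alternative only. Low values of Areg, Tgfa and Btc in fibroblasts limit precision, and the reads behind them are unknown.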
